A study of Mus musculus with 2 samples.

Results

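Isl1, a LIM-homeodomain transcription factor, marks the progenitor cells of the second heart field, and loss of its gene in mice removes the outflow tract and right ventricle that these cells build. Factors of this class bind DNA through a homeodomain whose preferred core is TAAT. Genes of developmental transcription factors often lie in long stretches without other genes, where control elements can sit far from the promoter, and a factor that binds around its own gene may take part in its own regulation. ChIP-Seq shows where DNA was recovered with the antibody and does not by itself test such regulation.

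The binding of Isl1 around the Isl1 gene was examined in tissue dissected from the heart-forming region of C57BL/6 mouse embryos at E8.25-E9. The members are the 33 peaks to which the deposited peak list gives the gene symbol Isl1, out of 48295 peaks in all. The list belongs to 1 ChIP sample, made from a pool of about 60 to 80 embryos and precipitated with the anti-Isl1 antibody 39.4D5. An input sample, which received no antibody, completes the series, and its signal was not analysed here. There is no replicate list, no peak height and no read number, so depth is unknown and no difference between conditions could be tested. The material pooled whole tissue pieces and several stages, so cells with and without Isl1 cannot be told apart. Intervals given below are exact binomial (Clopper-Pearson) 95% intervals and cover counting error only. No test between peaks or genes was made, and ranks are descriptions of this list.

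In mm9 the Isl1 gene (ENSMUSG00000042258.5, NM_021459) lies on the reverse strand of chromosome 13 from 117088478 to 117099896, with 6 exons over 11.4 kb. The transcription start site (TSS) behind all 33 distances was 117099896, which is also the annotated gene start. All 33 peaks lay on chromosome 13. A single peak overlapped the gene itself, in intron 3 of 5, and the other 32 were intergenic. By the list, the next TSSs were those of Itga1, an integrin subunit gene 1208 kb away on the downstream side, and Parp8, an ADP-ribosyltransferase gene 714.4 kb away on the upstream side. A peak received the name Isl1 because no TSS of the list was closer, so the 33 peaks covered the 603.9 kb downstream and 357.2 kb upstream of the TSS that lie nearer to Isl1 than to its neighbours.

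The sequence under 3 of these peaks is shown because each of the 33 peaks held a long uninterrupted run of purines (A and G) or of pyrimidines (C and T). Sequences are written 5′ to 3′ on the forward strand of mm9, opposite to the transcribed direction of Isl1, and capitals mark the longest run in the peak. The first is from the upstream peak closest to the TSS, at chr13:117103572-117103786. The second holds the shortest of the 33 longest runs, 49 bp, at chr13:116945515-116945703. The third is from the peak with the most TAAT cores near its midpoint, at chr13:117125154-117125391. This stretch is cut around the run, and not all of those cores fall inside it.
Upstream, 3.74 kb: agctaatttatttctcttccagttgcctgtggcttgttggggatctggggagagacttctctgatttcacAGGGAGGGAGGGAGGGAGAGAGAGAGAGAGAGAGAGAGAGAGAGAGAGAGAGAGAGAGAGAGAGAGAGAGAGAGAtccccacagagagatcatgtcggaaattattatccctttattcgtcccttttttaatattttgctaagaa
Downstream, 154.3 kb: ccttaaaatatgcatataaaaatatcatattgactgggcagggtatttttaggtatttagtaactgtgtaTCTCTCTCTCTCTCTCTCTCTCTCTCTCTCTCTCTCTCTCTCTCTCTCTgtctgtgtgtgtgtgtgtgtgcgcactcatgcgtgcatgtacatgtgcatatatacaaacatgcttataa
Upstream, 25.3 kb: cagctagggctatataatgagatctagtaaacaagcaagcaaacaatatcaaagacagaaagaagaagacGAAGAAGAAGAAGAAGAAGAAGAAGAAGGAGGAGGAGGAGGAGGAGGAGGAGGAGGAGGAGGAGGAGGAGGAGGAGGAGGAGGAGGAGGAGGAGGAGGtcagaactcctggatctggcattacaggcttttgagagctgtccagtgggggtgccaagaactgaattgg
The first run passes from GGGA units into a GA repeat, the second is a plain CT repeat, and the third is built of GAA and GGA units. For contrast, the 250 bases before the TSS, at chr13:117099897-117100146 and written here on the strand of the gene, were 71.2% G or C and lay under no peak. Their longest purine or pyrimidine run was 9 bp, and TAAT or its reverse complement occurred 2 times.
Before the TSS: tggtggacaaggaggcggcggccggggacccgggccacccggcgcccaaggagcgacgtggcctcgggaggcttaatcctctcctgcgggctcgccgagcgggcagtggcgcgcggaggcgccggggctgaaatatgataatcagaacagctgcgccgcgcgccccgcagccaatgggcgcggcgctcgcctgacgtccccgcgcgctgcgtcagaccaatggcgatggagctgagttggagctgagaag

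The 33 peaks were split almost evenly around the TSS. Upstream lay 16 peaks (48.5%, interval 30.8 to 66.5%) and downstream lay 17, beside 47.5% of all peaks of the list upstream of their TSS. The downstream side was the longer one, with 62.8% of the stretch, which gave 4.48 peaks per 100 kb upstream and 2.82 downstream. The order turned with annotated protein-coding TSSs, described below, where 12 peaks in 292.0 kb upstream gave 4.11 per 100 kb and 4 peaks in 78.0 kb downstream gave 5.13. In both cases the sides differed in length. At equal distance from the TSS the counts were similar, 7 upstream and 6 downstream within 100 kb and 12 and 10 within 200 kb. The median distance to the TSS was 102.9 kb for the upstream and 154.3 kb for the downstream peaks. Over all 33 it was 111.0 kb, beside 58.8 kb for all other peaks. The other peaks were not matched for the length of the stretch around their gene. Genes of similar stretch are compared below by their peaks within 100 kb of the TSS.

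No peak lay within 1 kb of the Isl1 TSS, where 2.58% of all other peaks lay, and the exact upper limit for 0 of 33 is 10.6%. As with the distances above, the peaks of the list were not matched for length of stretch. Within 10 kb lay 2 peaks (6.06%, interval 0.743 to 20.2%), beside 15.9% of all peaks of the list. The upstream one of these lay on chromosome 13 from 117103420 to 117103854, 3.74 kb before the TSS and 434 bp wide. The downstream one lay in intron 3, 5.08 kb into the gene, and was 592 bp wide. Between 10 and 100 kb lay a further 6 upstream and 5 downstream peaks, which brought the count within 100 kb to 13. From 100 to 200 kb there were 5 upstream and 4 downstream peaks. Beyond 200 kb the upstream side had 4 more peaks, from 321.2 to 351.4 kb, and the downstream side 7 more, from 378.9 to 591.1 kb. Peaks were denser near the gene. Between 50 and 100 kb there were 6.00 per 100 kb on each side, against 2.54 per 100 kb beyond 200 kb upstream, and 1.00 between 200 and 400 kb and 2.45 beyond 400 kb downstream. Runs of at least 50 bp numbered 7 upstream and 4 downstream in the 50 kb between 50 and 100 kb. Beyond 200 kb upstream there were 9 in 157.2 kb. Downstream there were 13 in the 200 kb up to 400 kb and 21 in the 203.9 kb beyond. The part of the runs in the gradient of peaks was not tested.

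**Figure D1:**
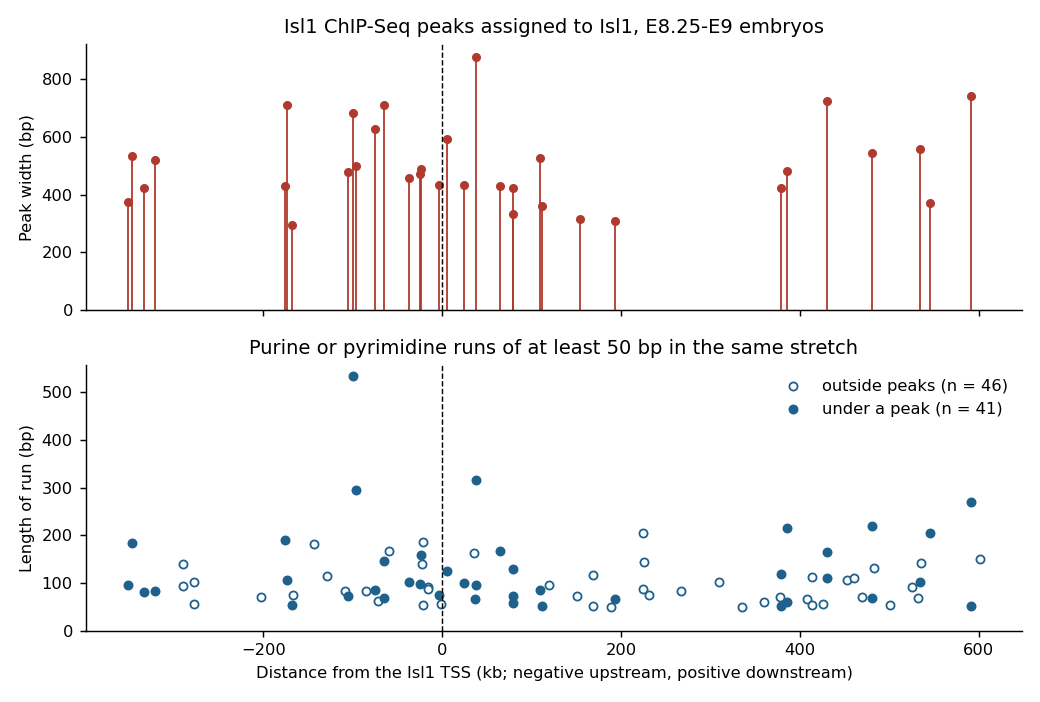
Each of the 33 Isl1 peaks is drawn at its distance from the Isl1 TSS in kb, negative upstream and positive downstream, with its width in bp (upper panel), and each run of 50 bp or more in the same stretch is drawn with its length in bp (lower panel). Peaks crowd around the TSS and leave gaps of 145.1 kb upstream and 184.9 kb downstream. These gaps hold 5 and 9 such runs, fewer for their length than the 9.11 per 100 kb of the whole stretch.

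The peaks were unevenly spaced. The 32 gaps between facing edges of neighbouring peaks ranged from 184 bp to 184.9 kb, with a median of 13.1 kb (95% interval from the order statistics 8.31 to 29.9 kb). In 4 places the gap was under 2 kb, so that peaks formed close pairs. The tightest pair lay 79.4 and 78.8 kb downstream, 184 bp apart. Others lay 111.0 and 109.7 kb downstream with 798 bp between them, 24.1 and 25.3 kb upstream with 769 bp, and 173.4 and 175.6 kb upstream with 1.58 kb. At the other end, 2 gaps exceeded 100 kb. The longer one, from 193.6 to 378.9 kb downstream, had 9 runs of at least 50 bp. The other, from 175.6 to 321.2 kb upstream, had 5 such runs, and 6000 bp of it are unresolved in the assembly. For their length both gaps held fewer such runs than the whole stretch, which had 9.11 per 100 kb. Among 237 genes with a stretch of similar length and at least 5 peaks, the median gap was 34.6 kb (upper quartile 46.1 kb), and 4 of them had a smaller median gap than Isl1.

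Peak width at Isl1 was close to that of the list as a whole. The narrowest peak was 293 bp, the median 477 bp (95% interval from the order statistics 429 to 534 bp) and the widest 877 bp. All other peaks had a median of 466 bp. Of the 33 peaks, 18 were wider than the median of the list, which 49.9% of all peaks were. Upstream and downstream peaks had medians of 483.5 and 432 bp, and their ranges, 293 to 710 bp and 307 to 877 bp, overlapped between 307 and 710 bp. The 3 widest peaks, of 722, 742 and 877 bp, were all downstream. The widest peak lay 37.3 kb downstream, on chromosome 13 from 117062133 to 117063010. It was followed by those 591.1 and 430.0 kb downstream, 742 and 722 bp wide.

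To set the number of peaks against the room around the gene, the territory of each gene was taken as the sequence that lies closer to its TSS than to any other. With annotated protein-coding TSSs of GENCODE vM1 the Isl1 territory was short. A predicted single-transcript gene, Gm6404, starts 155.9 kb downstream of the Isl1 TSS, and an additional Parp8 TSS lies 584.0 kb upstream. This left 364.5 kb of resolved sequence with 16 of the 33 peaks. Among 802 other genes with a territory within 20% of this length, 783 had fewer peaks (97.6%, interval 96.3 to 98.6%), 10 had the same number and 9 had more. The median was 7 peaks, with quartiles of 5 and 9. Isl1 had 4.39 peaks per 100 kb, beside a median of 1.98.

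The highest counts in this group included 21 for Rasgrp1, which encodes an activator of Ras, and 20 each for Prkcq, a protein kinase C, and 1500009L16Rik. Chd9, a chromodomain helicase gene, Cpne4 and 3930402G23Rik were among the 10 genes that equalled Isl1 with 16 peaks. Tgfb2, the gene of a TGF-beta ligand, Ubash3b and Limch1 were among those with 15. The genes nearest to Isl1 in territory length had far fewer, 8 at Fam189a1, 4 at Lrba and 5 at Gm10290.

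The TSSs that the peak list itself used could be rebuilt from the midpoints and distances, and they gave the territory that matches the 33 peaks. It held 955.1 kb of resolved sequence. This choice was made after the data had been seen, and genes without any peak are missing from it. Among 263 other genes within 20% of this length, 257 had fewer peaks than Isl1 (97.7%, interval 95.1 to 99.2%) and 6 had more. The median was 14 peaks, with quartiles of 9 and 19. However, 1045 accessions of the list gave no TSS, so a territory can take in peaks that carry another gene's name. Eef1e1, for example, had 4 peaks by name but 34 runs of at least 50 bp under a peak. Such genes count low, which can raise the rank of Isl1, and the size of this effect was not tested. Other peak counts for these 263 genes share this limit. Of all 12972 genes in the list, 56 (0.432%) had 33 or more peaks, Isl1 among them. The 6 genes with more peaks were 9030624G23Rik with 52, Tshz3, a zinc-finger factor gene, with 43, Maf, the gene of a bZIP factor, with 42, Auts2 with 40, Tox3, an HMG-box gene, with 37, and Zfp608 with 34. Just below Isl1 stood AU023762 with 32 and Kcnj2, the gene of an inward-rectifier potassium channel, and Gatsl2 with 30 each. Nmur2, Dad1 and Vstm2a, the closest in territory length, had 20, 20 and 11 peaks. The flanking genes were sparser than Isl1 with its 3.46 peaks per 100 kb. Itga1 had 11 peaks at 1.80 per 100 kb, and Parp8 had 7 peaks at 1.54 per 100 kb.

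**Figure D2:**
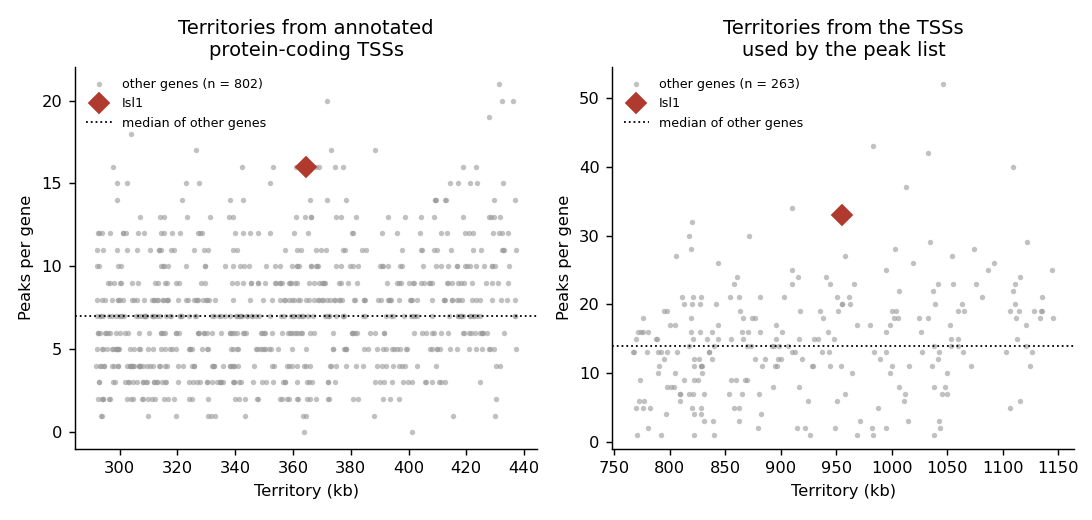
The number of peaks of each gene is plotted against its territory in kb for genes within 20% of the Isl1 territory, with annotated protein-coding TSSs (left, 802 other genes) and with the TSSs of the peak list (right, 263 other genes). Isl1 (diamond) had 16 and 33 peaks, above the dotted medians of 7 and 14, and some genes stood higher in both panels.

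Isl1 stood farther above these genes close to the TSS than far from it. Within 100 kb Isl1 had 13 peaks and all 263 genes had fewer, with a median of 3 and a maximum of 10. Beyond 100 kb it had 20, the other genes had a median of 11, and 24 of them had more. A wider comparison took every gene with 1 TSS in the list and at least 100 kb of its own, fully resolved, on either side, again a choice made after the data had been seen. Of 1329 such genes, 1328 had fewer peaks within 100 kb than Isl1. The exception was Ror1, which encodes a Wnt5a receptor and also had 13. The median of these genes was 3 peaks, with quartiles of 2 and 5. Runs were also more numerous there. Within 100 kb of its TSS, Isl1 had 27 runs of 50 bp or more, where the other genes had a median of 13, and 19 of the 1329 genes had more. Among the 98 genes whose number of such runs was within 20% of that of Isl1, the median was 6 peaks, the highest count was 13, and 97 had fewer than Isl1. The part of the runs in the peak count was not tested beyond this.

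Within 100 bp of the midpoint, all 33 Isl1 peaks (interval 89.4 to 100%) held a run of at least 25 bp, as did 94.1% of all peaks. In windows of the same size 1 kb to either side, 1 of 66 held one (1.52%, interval 0.0384 to 8.16%), beside 3.96% of all flanking windows of the list. The shortest run in these central windows was 44 bp, in the intron peak, whose longest run lay off centre. Over the whole peak the longest run ranged from 49 to 534 bp with a median of 106 bp, beside 108 bp for all other peaks. Of the 56 genes with 33 or more peaks, 11 had a run at each of their peaks. The longest, 534 bp, filled 78.3% of the peak 100.1 kb upstream, on chromosome 13 from 117199636 to 117200317. The peak 96.5 kb upstream, with 2.99 kb between them, held a run of 295 bp. The runs lay near the middle of the peaks, with a median of 36 bp between the centre of the run and the midpoint and at most 120 bp, in the intron peak. On the forward strand 15 of the longest runs were purine (45.5%, interval 28.1 to 63.6%) and 18 pyrimidine, beside 49.99% purine over all peaks.

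The runs differed in make-up. A CT or GA repeat of at least 4 units stood within 100 bp of the midpoint in 19 of 33 peaks (57.6%, interval 39.2 to 74.5%), beside 55.2% of all peaks. Inside the longest run the longest perfect CT or GA repeat was between 2 and 64 bp, with a median of 30 bp. Stretches of a single base were short, from 1 to 13 bp with a median of 4 bp.

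**Figure D3:**
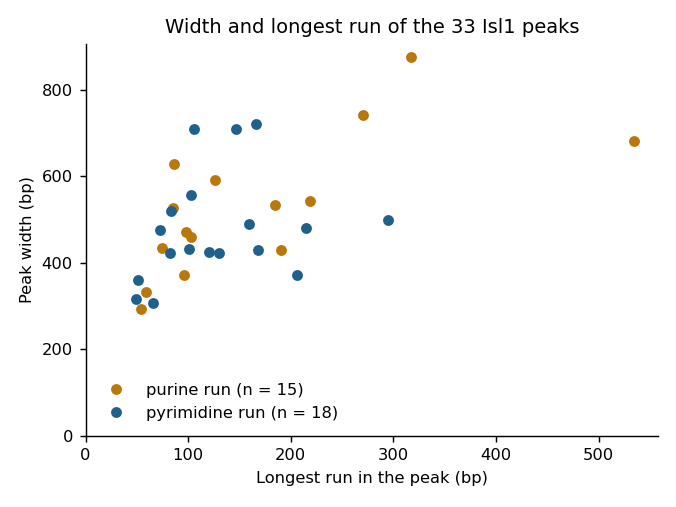
The width of each of the 33 Isl1 peaks in bp is plotted against the length of its longest run in bp, with 15 purine and 18 pyrimidine runs. Peaks whose longest run is under 70 bp are at most 361 bp wide, and the widest peak, 877 bp, holds a run of 317 bp.

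Wider peaks tended to hold longer runs. Over the 33 peaks Spearman's rho between width and longest run was 0.58 and Pearson's r was 0.54, and over all other peaks rho was 0.37. These are descriptions across peaks of 1 library, which share its depth and fragment length. A run was counted only up to the edges of its peak, so a wider peak leaves room for a longer run. How much of the correlation comes from this was not tested. The peaks with the 4 shortest runs, 49 to 59 bp, were between 293 and 361 bp wide.

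Not every run around Isl1 lay under a peak. In the stretch closest to the Isl1 TSS of the list there were 87 runs of at least 50 bp, and 41 of them (47.1%, interval 36.3 to 58.1%) overlapped a peak by at least 1 bp. Over all chromosomes 30.6% of such runs did. For the 263 genes of similar stretch the median share was 32.8%, with quartiles of 27.0 and 37.8%, and 10 genes had a higher share than Isl1. As 91.8% of all peaks held a run of at least 50 bp, this share depends on the number of peaks. It is therefore not a feature separate from the peak count. Among runs of at least 100 bp Isl1 was near the middle, with 53.8% beside a median of 52.1% and 115 of 260 genes higher. With annotated protein-coding TSSs, 19 of 38 runs (50.0%, interval 33.4 to 66.6%) lay under a peak, and the 802 genes of similar territory had a median of 31.2%. The share rose with length. Among the 110 shortest runs, 25 to 49 bp long, 8.18% lay under a peak. For lengths of 50 to 99 bp the share was 41.7% (n = 48), from there to under 200 bp it was 45.2% (n = 31), and from 200 bp on it was 87.5% (n = 8). The matching shares over all chromosomes were 4.72, 21.2, 43.7 and 71.7%. Among runs of 50 to 99 bp the interval at Isl1, 27.6 to 56.8%, lay above the share over all chromosomes. In the other 3 classes the interval included it. These intervals count each run as independent, but several runs can share a peak. The widest peak, for instance, held runs of 66 and 96 bp beside its longest of 317 bp. No conclusion is therefore drawn from the interval at 50 to 99 bp. The 1 run of at least 200 bp without a peak was 206 bp long and lay 224.8 kb downstream, on chromosome 13 from 116874998 to 116875203.

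**Figure D4:**
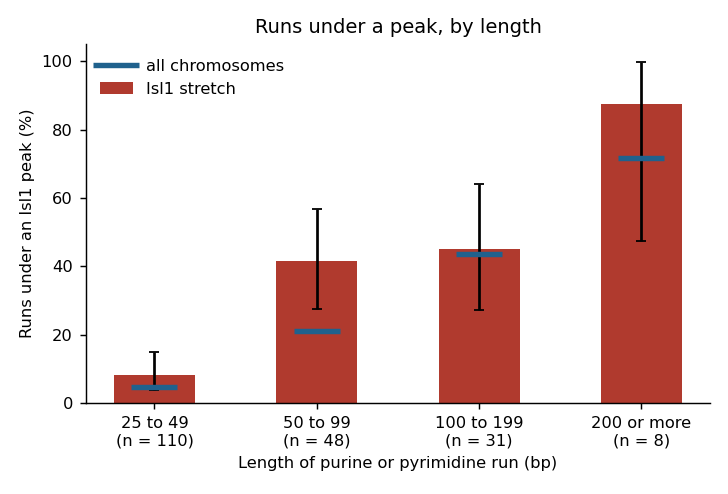
Bars show the share in % of purine or pyrimidine runs in the Isl1 stretch that overlap an Isl1 peak, by length of the run in bp, with exact 95% binomial intervals, and blue marks show the share over all chromosomes. Both rise with length, from 8.18% to 87.5% at Isl1, and the mark lies outside the Isl1 interval at 50 to 99 bp. The intervals do not allow for runs that share a peak.

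Close to the gene, with 2 peaks only, the same order was seen. Within 10 kb of the TSS there were 9 runs of at least 25 bp, and the 2 longest, 126 bp in intron 3 and 75 bp upstream, were those under the 2 peaks. The other 7, of 28 to 57 bp, were free of peaks, the closest of them a run of 49 bp 0.647 kb upstream of the TSS. Over the whole stretch the 50 runs of at least 25 bp under a peak had a median of 85.5 bp, and the 147 outside peaks a median of 35 bp.

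TAAT cores were not frequent at the centres of the Isl1 peaks. TAAT or its reverse complement occurred within 100 bp of the midpoint in 11 of 33 peaks (33.3%, interval 18.0 to 51.8%), beside 35.6% of all peaks, and in 55 of 66 windows 1 kb away (83.3%, interval 72.1 to 91.4%), beside 73.6% of all flanking windows. Both shares over the whole list lay inside the Isl1 intervals. The 33 central windows held 14 such sites and the 66 flanking windows 167. TAAT has both purines and pyrimidines, so no site can lie inside a run. The most sites in a central window, 3, were in the peak 25.3 kb upstream, and 2 were in the peak 37.6 kb upstream. Over the whole peak 32 of 33 had at least 1 site (97.0%, interval 84.2 to 99.9%), the exception being the peak 154.3 kb downstream. That interval lay above the 82.8% of all peaks. The longer motif TAATTA, which reads the same on both strands, was chosen after the data had been seen. It was found within 100 bp of the midpoint in 2 of 33 peaks (6.06%, interval 0.743 to 20.2%), beside 2.00% of all peaks. In windows 1 kb away it was found in 12 of 66 (18.2%, interval 9.76 to 29.6%). That interval lay above the 7.24% of all flanking windows. A median of 46.8% of the bases in the central windows at Isl1 were G or C, with a range from 32.8 to 64.7%, beside 48.8% for all other peaks.

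The edges of the set follow from the assignment to the closest TSS. The outermost downstream peak lay 591.1 kb from the Isl1 TSS, and the next one beyond, 642.0 kb away and 565.7 kb from the TSS of Itga1, was assigned to Itga1. On the upstream side the last Isl1 peak lay 351.4 kb away, and the next, 429.3 kb from Isl1 and 285.1 kb from the Parp8 TSS, was assigned to Parp8. These neighbours also held runs within 100 bp of their midpoints, of 182 and 31 bp.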

How the data were processed

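Isl1 ChIP-Seq peaks came from 1 list deposited for the ChIP sample. The authors aligned reads to mm9 (bowtie2) and discarded duplicates (Picard 1.136). MACS14 called the peaks, those on blacklisted regions were dropped, and annotatePeaks.pl named each by the nearest TSS. The deposited values are positions and signed distances in bp. Whether replicate lists were intersected for it is not given in the sources used here. Closest-TSS naming says nothing of which gene a peak acts on, and mapping of simple sequence can affect where peaks are called.

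The 1 header line inside the list was skipped, and peaks with the symbol Isl1 were kept. Sequence was read from NCBIM37, the same assembly as mm9, whose annotated Isl1 TSS equals that of the list. Runs (at least 25 bp) and motifs were searched within 100 bp of the midpoint and 1 kb to either side. Of 12977 accessions in the list, 11932 gave a TSS, from several peaks or from the annotated strand. Unresolved bases were left out of territory lengths. Named genes were Isl1, its neighbours and, within 20% of its territory, 3 each of the highest, next above, next below and closest in length. The sequences of some peaks are not reported here. Ror1 was named after its values were seen. The members and lists were chosen with earlier results of these data known. Functions were checked on simulated data. Python 3.11.15, pandas 2.3.3, scipy 1.17.1, pysam 0.24.0 and samtools 1.23.1 were used. Other settings are described in the closing section.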

Additional observations from a re-analysis of the deposited data

How the results depend on the processing

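No paired analysis was possible because the data are 1 peak list. Of 24 other values computed, 15 stayed within the interval of the first value, or within 1.5 times of a count. The number of Isl1 peaks fell from 33 to 16 with the closest annotated protein-coding TSS, to 18 with peaks wider than the median and to 13 within 100 kb of the TSS. The percentile of the count among genes of similar territory moved from 97.6 to 100 with all annotated TSSs, where the territory shrank, and to 99.9 with the count by symbol, which sets 33 peaks against a territory that holds 16. The share of peaks with a run fell from 100% to 6.06% in windows at the peak edge, and that with TAAT moved from 33.3% to 97.0% over the whole peak and to 6.06% for TAATTA. With runs of at least 25 bp, 31.0% of those in the Isl1 territory lay under a peak, beside 50.0% of those of at least 50 bp. The windows at the peak edge, TAATTA and the TSSs of the list were chosen after seeing the data. Without peak heights or read numbers, strong and weak peaks cannot be told apart.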
